A study of Brassica napus with 33 samples.

Results

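The 40 genes followed here were those that the study's list of 302 ion transport genes of *Brassica napus* roots assigned to nitrogen (N, 24 genes) or magnesium (Mg, 16 genes), out of 101040 genes counted. A gene could enter that list only if the study had called it differentially expressed under at least 1 of 6 deprivations of 10 days. The 10-day libraries therefore chose the members, and their values, calls and contrasts are given below as a description, without p-values. The libraries of the 22-day experiment had no part in that choice, and only there do the calls serve as a test of the members.

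Plant roots take up N mainly as nitrate and ammonium. In Arabidopsis, high-affinity nitrate uptake depends on transporters of the major facilitator superfamily that work together with a small membrane partner of the Nar2 family, and ammonium enters through channel-like proteins of the ammonium transporter family. Nitrate supply is known there to induce the major nitrate uptake genes, products of N assimilation to repress them, and N starvation to raise several ammonium transporter genes. The Mg ion is carried in plants mostly by CorA-type proteins of the MRS2 family, which the study filed apart from the genes described here. NIPA proteins are named after human membrane proteins that transport Mg, and the proteins named magnesium transporter protein 1 resemble the OST3/OST6 subunits of the yeast oligosaccharyltransferase, the enzyme complex that attaches sugar chains to new proteins in the endoplasmic reticulum.

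Among the N genes, the annotation named 10 ammonium transporters, 5 Nar2 proteins and 8 major facilitator proteins, and 1 gene, BnaA01g14080D, carried no annotation. Among the Mg genes it named 12 NIPA proteins, 3 magnesium transporter protein 1 (OST3/OST6) proteins and 1 magnesium transporter of no further description. The gene identifiers placed 12 N genes on the A and 12 on the C subgenome, and 9 Mg genes on the A and 7 on the C subgenome, of this hybrid species. The identifiers, of the Genoscope annotation V5, were not paired with gene symbols, and none of the 40 had an entry in RefSeq's Da-Ae gene table, so members of a family are called by their identifiers.

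Roots of wild-type oilseed rape cv. Trezzor, grown in hydroponics for 24 days on a complete solution with nitrate as the main N source, were sampled after 10 further days on a solution lacking Ca, K, Mg, N, P or S, or after 22 further days on one lacking Cl, Co or Mn. Plants kept on the complete solution served as controls at each time, which gave 7 conditions and 21 libraries at 10 days and 4 conditions and 12 libraries at 22 days, 3 libraries per condition. The study's methods describe each replicate of the 10-day harvest as a pool of plants and do not describe the 22-day harvest, so p-values measure the spread between these libraries. In whole roots, a lower transcript share in every cell and a smaller share of the cells that express a gene cannot be told apart.

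The libraries held 10115284 to 22841765 read pairs counted on genes (median 14050278), which was 63.9% to 76.0% of all pairs sequenced. Libraries of a condition correlated with r from 0.932 to 0.988 (log2 of the normalized counts over all genes), and the 10-day controls were among the more variable, at 0.932 to 0.954. Control library 1 held the highest value of its group for most Nar2 and major facilitator genes, and so did Mg-deprived library 1, so calls that depend on them are named below. The files pair no gene with a root marker, and the labelled tissue was not checked against markers. All 40 genes passed the filter on low counts at both times. Levels are given as counts per 1000000 counted pairs after normalization (CPM) and compared only within a gene or a fixed family, since CPM are not corrected for transcript length.

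Fewer N transporter genes were called under deprivation of N itself than under that of P or Ca. Under N deprivation 6 of the 24 genes were called lower and 1 higher (adjusted p of at most 0.05, edgeR quasi-likelihood test), where 20.1% of all genes tested were called, 11.1% lower and 9% higher. Under P deprivation 16 were lower and 0 higher, where 29.3% of all genes were called, 14.3% lower and 15.1% higher. Under Ca deprivation 20 were lower and 1 higher, where 26.5% of all genes were called, 13.9% lower and 12.6% higher. Mg deprivation left 1 gene lower and 2 higher, where 3.58% of all genes were called, 1.24% lower and 2.34% higher. K deprivation left 2 lower and 0 higher, where 1.26% of all genes were called, 0.346% lower and 0.916% higher. S deprivation left 1 lower and 0 higher, where 8.84% of all genes were called, 4.63% lower and 4.22% higher. Since these contrasts chose the genes, nothing is read from these shares.

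The median log2 fold change of the 24 genes was −0.25 under N, −0.10 under Mg, −1.66 under P, 0.06 under S, −0.51 under K and −1.91 under Ca deprivation, while the medians over all genes tested lay between −0.04 and 0.01. When genes that never exceeded 3 counts in a deprived condition were set to their bound, the medians were −1.59 under P and −1.81 under Ca deprivation. The response to N deprivation was the largest of a gene's 6 responses in 2 of the 24 genes, both of them ammonium transporters. It was largest under Ca deprivation in 15 genes and under P deprivation in 7. Called lower under both P and Ca deprivation were 15 genes, and 17 genes were called under some deprivation but not under that of N. A call under at least 1 deprivation was the condition of entry to the list. No share over all genes is set beside these counts or those of the largest responses, and nothing is read from them.

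**Figure D1:**
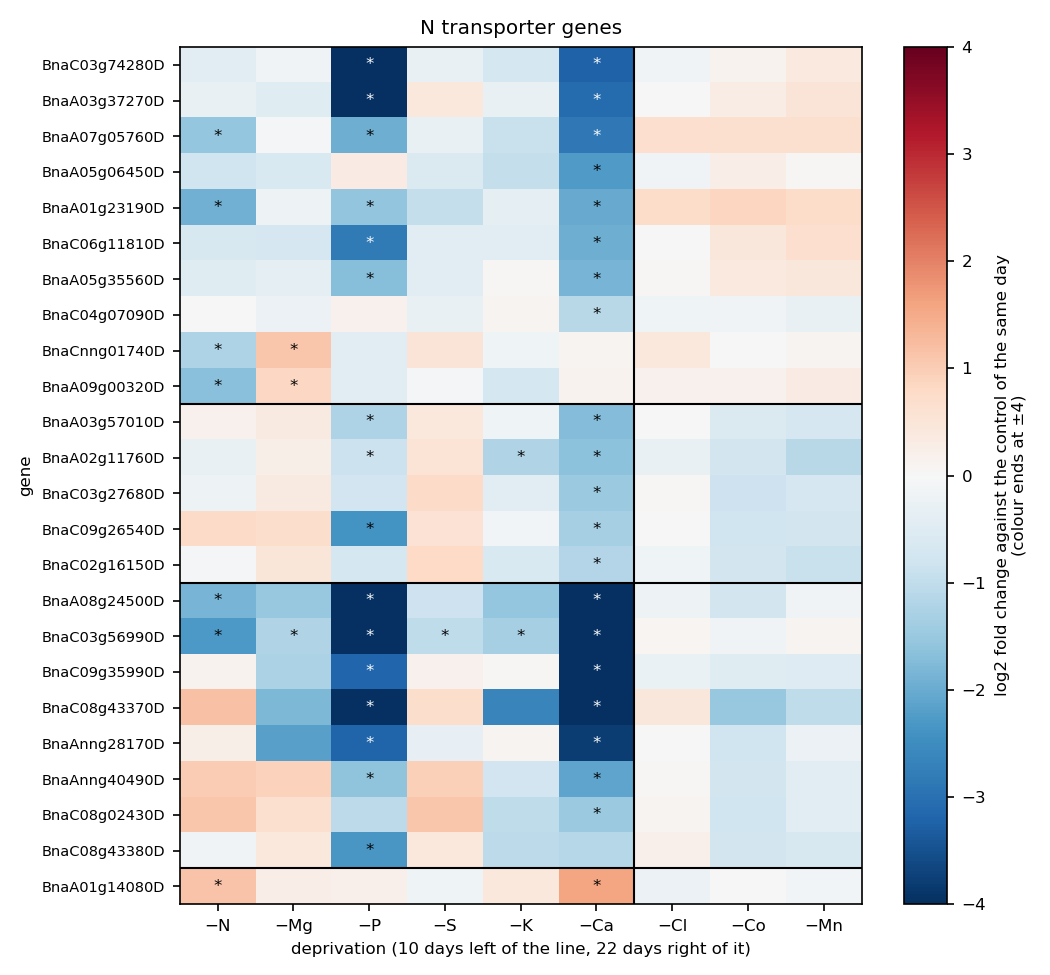
Log2 fold change of the 24 N transporter genes (rows) under each deprivation (columns) against the control of the same day, with asterisks on calls at an adjusted p of at most 0.05 and lines between ammonium transporters, Nar2, major facilitator and unannotated genes. Blue cells with asterisks make up most of the P and Ca columns (16 and 20 genes lower), the N column holds 7 calls and the 3 columns of 22 days hold 0.

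The ammonium transporters form the family in which N deprivation went in a single direction. All 10 genes had a negative log2 fold change, with a median of −0.73, and 4 were called lower (11.1% of all genes). Their summed level was 242, 247 and 295 CPM in the 3 control libraries, 153, 144 and 163 CPM without N, 101, 72.8 and 94.6 CPM without P and 102, 86.7 and 94.8 CPM without Ca. Every library without N, P or Ca thus lay below every control library, and the libraries without P or Ca lay below those without N. Without P 6 of the 10 genes were called lower (14.3% of all genes), and without Ca 8 (13.9%). As the 10-day libraries chose the genes, nothing is read from the family counts at 10 days.

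The ammonium transporter BnaA09g00320D measured 25.8, 27.4 and 31.7 CPM in the controls, 11.5, 7.09 and 7.93 CPM without N and 59.2, 48.0 and 44.2 CPM without Mg. The 3 groups did not overlap, with N-deprived roots lowest and Mg-deprived roots highest. Its log2 fold change was −1.68 ± 0.22 (SE, n = 3 per condition) under N deprivation and 0.83 ± 0.21 under Mg deprivation. Under the other deprivations it was not called, with log2 fold changes between −0.70 (K) and 0.13 (Ca), although without P-deprived library 1 the P value of −0.41 became −0.70 and was called. About 2.52% of the read pairs at this gene lay on the opposite strand, the highest share among the members.

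BnaCnng01740D, another ammonium transporter, went the same way. It measured 11.3, 7.85 and 9.15 CPM in the controls, 4.08, 4.49 and 3.32 CPM without N and 25.2, 19.2 and 16.2 CPM without Mg, again without overlap between the groups. The log2 fold change was −1.24 ± 0.30 under N and 1.10 ± 0.28 under Mg deprivation, and lay between −0.46 (P) and 0.52 (S) otherwise. These were the only members of the N list called in both directions. The calls under N deprivation kept their side of the threshold when any 1 library was left out. Those under Mg deprivation did not: BnaA09g00320D was not called without control library 1 (0.76) or 2 (0.83) or Mg-deprived library 1 (0.70) or 3 (0.93), nor BnaCnng01740D without control library 1 (1.23), 2 (1.0) or 3 (1.08) or Mg-deprived library 1 (0.91).

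**Figure D2:**
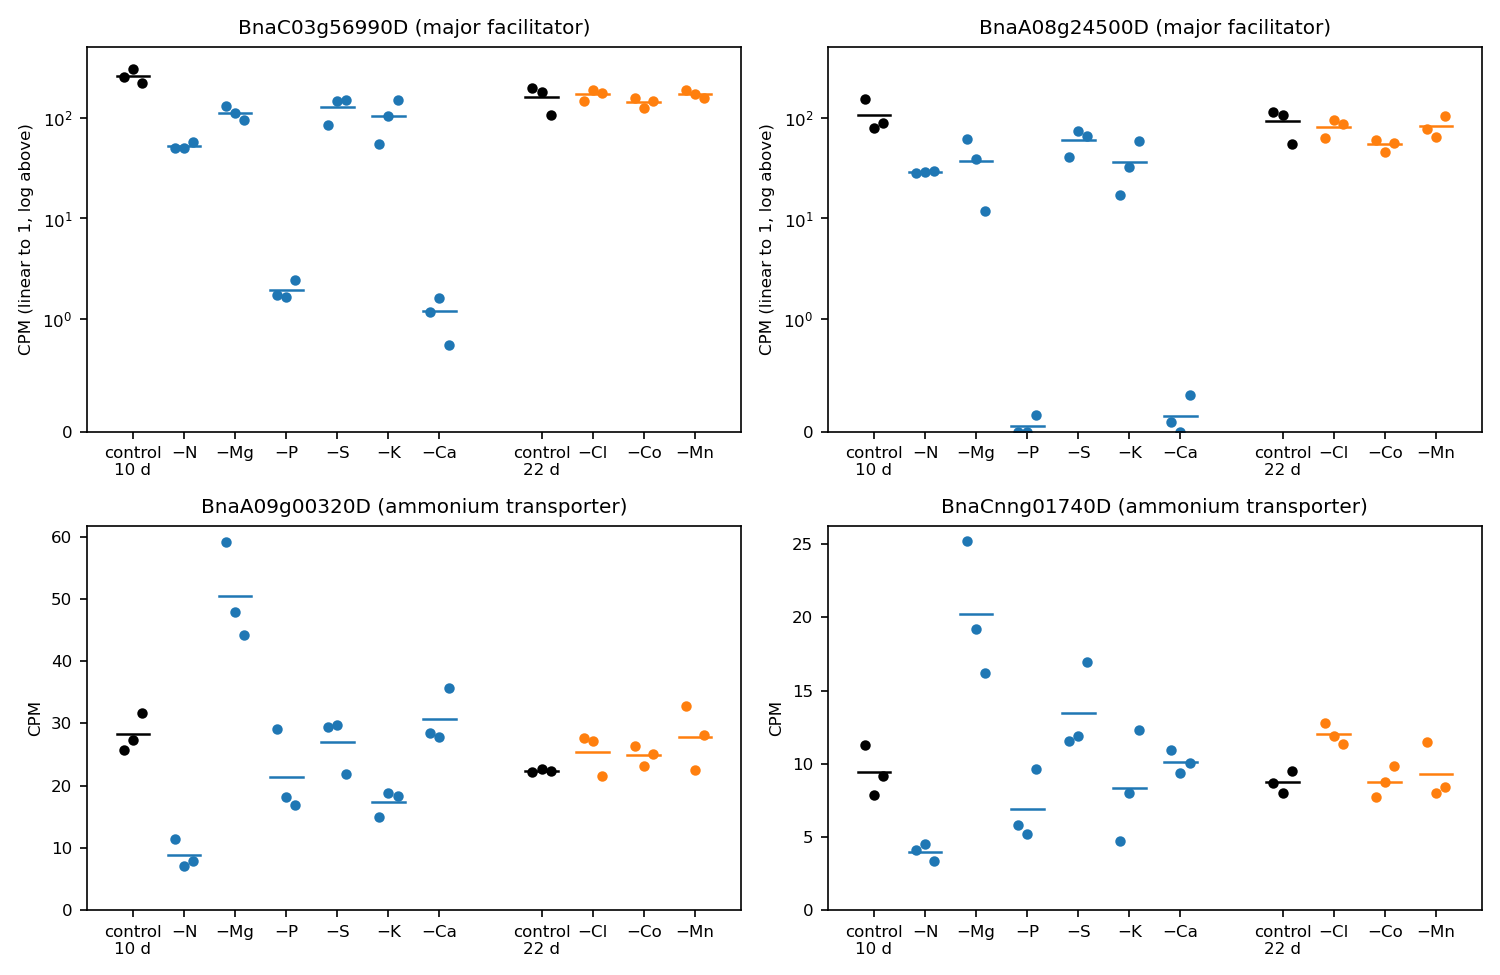
CPM of 4 N transporter genes in each of the 33 libraries (points, libraries 1 to 3 from left to right; lines, means of 3) under the 11 conditions (black, controls; blue, 10-day deprivations; orange, 22-day deprivations), on a scale that is linear to 1 and logarithmic above it for the upper pair and linear for the lower pair. Both major facilitator genes (upper) fall to at most 2.45 CPM without P or Ca, and both ammonium transporters (lower) have their lowest mean without N and their highest without Mg.

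BnaA07g05760D and BnaA01g23190D were the other ammonium transporters called lower without N. BnaA07g05760D measured 41.9, 28.0 and 40.5 CPM in the controls, 10.0, 13.5 and 14.0 CPM without N, 11.3, 9.23 and 8.17 CPM without P and 3.84, 6.33 and 4.77 CPM without Ca. None of these deprived libraries reached the lowest control, and the log2 fold changes were −1.54 ± 0.28, −1.94 ± 0.29 and −2.85 ± 0.30. BnaA01g23190D had few counts, at 0.942, 1.35 and 2.95 CPM in the controls and 0.511, 0.390 and 0.466 CPM without N. Its log2 fold change was −1.94 ± 0.47 under N deprivation, and without control library 3, the highest, it was −1.30 and not called. Under P deprivation it was −1.56 ± 0.45, and not called without control library 3 (−0.93) or without P-deprived library 2 (−1.30) or 3 (−1.47). The largest response of BnaA01g23190D was to Ca deprivation, where it was called lower. That call held without any 1 library (−2.33 to −1.39). It was lost in the fit of only the conditions compared (−2.02).

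The remaining ammonium transporters were called lower without P, Ca or both, and not without N. BnaC03g74280D measured 8.87, 11.5 and 10.0 CPM in the controls, 0.302, 0.364 and 0.817 CPM without P and 0.854, 1 and 1.29 CPM without Ca, with no overlap, and 5.79, 8.00 and 8.80 CPM without N. Its log2 fold change was −4.34 ± 0.30 under P and −3.23 ± 0.27 under Ca deprivation. BnaA05g35560D (−1.71 under P and −1.87 under Ca deprivation) and BnaC06g11810D (−2.83 and −1.96) were called in both, and all of these calls held without any 1 library. BnaC06g11810D was called lower also under N deprivation (−0.65, not called in the reported fit) by the likelihood ratio test, DESeq2 and the fit of only the conditions compared.

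BnaA03g37270D held 4, 5 and 15 counts in the controls, 0 in every P-deprived library and 1 in every Ca-deprived library. At this depth it was at least 2.72-fold lower without P and at least 2.99-fold lower without Ca, taking 3 counts per library as the floor. The Ca call was lost without control library 3 (−2.32) or any 1 Ca-deprived library (from −3.21 to −2.91). The 2 ammonium transporters with a Rhesus-type domain, BnaA05g06450D and BnaC04g07090D, were called lower without Ca only (−2.26 and −1.11). Under P deprivation, their log2 fold changes were 0.33 and 0.17. The Ca call of BnaC04g07090D was lost without control library 2 (−0.89) or Ca-deprived library 2 (−0.89). BnaA05g06450D was called lower also under N (−1.09) and K (−1.23) deprivation once control library 1, at 2.51 CPM the lowest of 2.51, 5.83 and 4.75 CPM, was left out.

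Nar2 proteins are the partners of the high-affinity nitrate transporters. Their summed level was 629, 324 and 368 CPM in the controls, 418, 380 and 501 CPM without N, 278, 210 and 195 CPM without P and 150, 142 and 166 CPM without Ca. The N-deprived libraries lay within the range of the controls, whereas those without P or Ca lay below it. None of the 5 genes was called under N deprivation (20.1% of all genes were), where their log2 fold changes ran from −0.30 to 0.76. All 5 were called lower without Ca (−1.16 to −1.75), where 13.9% of all genes were. Without P 3 were (14.3% of all genes), and without K 1, BnaA02g11760D (0.346%).

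Under S deprivation the sum was 590, 744 and 682 CPM. All of these lay above control libraries 2 and 3, and S-deprived libraries 2 and 3 also above control library 1 (629 CPM). All 5 log2 fold changes were positive there, with a median of 0.57, and none was called. Without control library 1, BnaC03g27680D was called higher (1.26). The P calls of BnaA02g11760D (−0.67) and BnaA03g57010D (−0.85) and the Ca calls of BnaC02g16150D (−0.85) and BnaC09g26540D (−1.0) were lost without that library too. The K call of BnaA02g11760D (−1.19 ± 0.28) was lost without any 1 of the 6 libraries, with values from −1.34 to −0.99. The P call of BnaA02g11760D was also lost without P-deprived library 2 (−0.84) or 3 (−0.72), the Ca call of BnaC02g16150D without Ca-deprived library 1 (−1.09) or 2 (−1.09) and that of BnaC09g26540D without Ca-deprived library 2 (−1.25).

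BnaC09g26540D had the strongest response of the family. It measured 25.9, 14.5 and 13.9 CPM in the controls and 5.97, 3.13 and 1.26 CPM without P, a log2 fold change of −2.39 ± 0.43. Without N it measured 33.1, 25.0 and 33.1 CPM, which overlapped the highest control, and the log2 fold change of 0.76 ± 0.38 was not called.

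**Figure D3:**
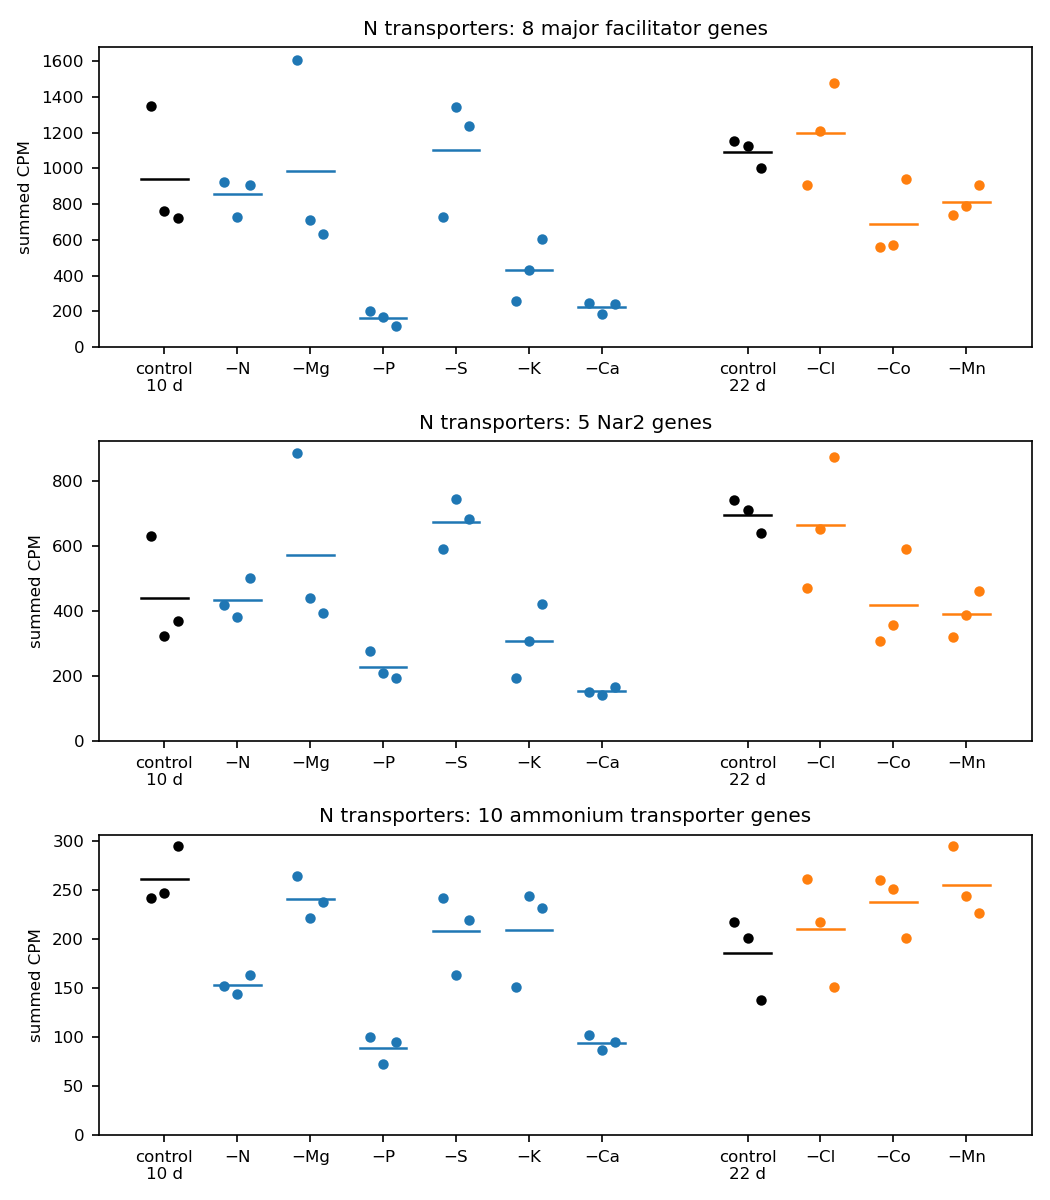
Summed CPM of the 8 major facilitator, 5 Nar2 and 10 ammonium transporter genes in each library (points, libraries 1 to 3 from left to right; lines, means of 3) under the 11 conditions (black, controls; blue, 10-day deprivations; orange, 22-day deprivations). Libraries without P or Ca lie below all 10-day controls in each family (for the major facilitator genes at most 246 CPM, against at least 721), while N-deprived libraries lie below them only for the ammonium transporters.

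The major facilitator genes covered the widest span of responses. As a family they summed to 1349, 760 and 721 CPM in the controls, 925, 730 and 907 CPM without N, 201, 169 and 115 CPM without P, 246, 183 and 243 CPM without Ca and 255, 433 and 603 CPM without K. Libraries without P, Ca or K stayed below every control, and those without N did not. Without P 7 of the 8 were called lower (14.3% of all genes), with a median log2 fold change of −3.19 over the family. Without Ca 7 were as well (13.9% of all genes), with a median of −3.98. Under N deprivation 2 were called lower (11.1% of all genes) and 5 of the 8 log2 fold changes were positive.

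BnaC03g56990D was the only member called under all 6 deprivations, in every case lower. It measured 254, 301 and 220 CPM in the controls, 50, 49.6 and 56.8 CPM without N, 1.74, 1.67 and 2.45 CPM without P and 1.2, 1.64 and 0.774 CPM without Ca. Under the milder cases it measured 131, 112 and 94.0 CPM without Mg, 84.7, 145 and 150 CPM without S and 54.4, 105 and 149 CPM without K. All 18 deprived libraries lay below the lowest control library.

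The log2 fold changes of BnaC03g56990D were −2.30 ± 0.30 (N), −1.21 ± 0.29 (Mg), −7.04 ± 0.39 (P), −1.02 ± 0.29 (S), −1.33 ± 0.29 (K) and −7.70 ± 0.40 (Ca). The fitted level was thus 4.92-fold lower without N, 132-fold lower without P and 208-fold lower without Ca. The N, P and Ca calls held without any 1 library. The Mg call was lost without control library 1 (−1.23) or 2 (−1.06) or Mg-deprived library 1 (−1.33) or 3 (−1.09). The S call was lost without control library 2 (−0.90) or 3 (−1.12) or S-deprived library 1 (−0.80) or 3 (−1.16), and the K call without control library 2 (−1.20) or K-deprived library 1 (−1.04) or 2 (−1.35). The 22-day controls, grown longer on the complete solution, measured 195, 179 and 105 CPM, and the lowest of them fell within the range of the roots deprived of Mg, S or K for 10 days.

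BnaA08g24500D, a second major facilitator gene, fell to the detection limit. It held 1930, 939 and 1226 counts in the controls, 330, 441 and 509 without N, 0, 0 and 2 without P and 1, 0 and 5 without Ca. In CPM, the controls measured 152, 79.3 and 88.3 and the N-deprived libraries 28.1, 28.7 and 29.7, without overlap. The log2 fold change was −1.87 ± 0.48 under N deprivation. Without P the gene was at least 478-fold lower, taking 3 counts per library as the floor, and without Ca the fitted log2 fold change was −9.56 ± 0.82, from 6 counts in the 3 libraries together. Without Mg (60.9, 38.4 and 11.9 CPM), K (17.1, 32.4 and 59.1 CPM) or S (40.7, 73.3 and 65.4 CPM) all libraries lay below the controls too, but the log2 fold changes of −1.52, −1.56 and −0.82 were not called. DESeq2 called the gene lower under Mg deprivation (−1.53).

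The other 6 major facilitator genes were not called without N, and 4 of them were called lower without both P and Ca. BnaC08g43370D measured 8.40, 3.63 and 3.24 CPM in the controls, 13.9, 7.09 and 13.1 CPM without N, 0, 0.291 and 0 CPM without P and 0.598, 0 and 0.322 CPM without Ca. Its N-deprived range overlapped the highest control, and its log2 fold changes were 1.17 ± 0.66 under N (not called), −5.57 ± 1.15 under P and −4.18 ± 0.96 under Ca deprivation. It was also below all controls without K, at 0.228, 0.143 and 2.07 CPM (−2.65 ± 0.82, not called), and without Mg, at 2.69, 1.29 and 0.388 CPM (−1.79 ± 0.75, not called). Between its N-deprived and its P-deprived libraries the levels did not overlap.

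BnaC08g02430D was high in N-deprived and in S-deprived roots. It measured 195, 86.2 and 82.5 CPM in the controls, 266, 213 and 298 CPM without N and 164, 311 and 299 CPM without S, against 46.4, 40.4 and 42.5 CPM without Ca. Every N-deprived library was above every control, but the log2 fold change of 1.11 ± 0.40 was not called. Without control library 1 it was 1.62 and called, as was that under S deprivation (1.61 in place of 1.10 ± 0.40), and the Ca call (−1.47) was lost (−0.96). Without control library 3 it was called lower also under P deprivation (−1.25 in place of −1.04). With all libraries, the likelihood ratio test and DESeq2 called that P value too, and DESeq2 the S value.

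BnaAnng40490D followed the same course, with 145, 52.9 and 70.5 CPM in the controls and 193, 157 and 183 CPM without N. Its log2 fold change was 1.0 ± 0.37 under N deprivation (not called; 1.53 and called without control library 1) and 0.94 under S deprivation (not called; 1.47 and called without that library). It was called lower without P (−1.61) and Ca (−2.11). The likelihood ratio test and DESeq2 called both genes higher under N deprivation with all libraries included.

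BnaC08g43380D measured 581, 230 and 250 CPM in the controls, 360, 267 and 319 CPM without N and 86.2, 78.3 and 46.6 CPM without P. Its log2 fold change was −0.15 ± 0.41 under N deprivation and −2.33 ± 0.43 under P deprivation. The Ca value of −1.14 was not called with all libraries and was called without control library 2 (−1.35) or 3 (−1.33), and with all libraries by the likelihood ratio test, DESeq2 and RLE normalization. BnaC09g35990D and BnaAnng28170D were called lower without P (−3.18 and −3.20) and Ca (−4.99 and −3.78) and had log2 fold changes of 0.13 and 0.25 without N.

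BnaAnng28170D measured 4.71, 2.03 and 1.01 CPM in the controls and 0.142, 1.2 and 0.155 CPM without Mg. The Mg-deprived range reached into that of the controls through library 2, and the log2 fold change of −2.16 ± 0.62 was not called. Without Mg-deprived library 2 it was −4.04 and called, and without control library 3 it was −2.54 and called. The likelihood ratio test (−2.24) and DESeq2 (−2.28) called it with all libraries. BnaC09g35990D, too, was called under Mg deprivation without Mg-deprived library 2 (−2.10 in place of −1.25).

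The unannotated gene BnaA01g14080D was the only member of the N list called higher without N or without Ca. It measured 0.628, 2.03 and 1.58 CPM in the controls, 2.38, 2.73 and 4.14 CPM without N and 3.67, 4.17 and 4.58 CPM without Ca. Neither deprived group overlapped the controls, and the log2 fold changes were 1.14 ± 0.39 and 1.57 ± 0.39. The N call was lost without control library 1 (0.79) or 3 (1.25) or N-deprived library 2 (1.23) or 3 (0.87), and it was lost with no filter on low counts and in the fit of only the conditions compared, while the Ca call held in all of these.

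The response to N deprivation was then set against the mean response to the other 5 deprivations. This contrast uses the same deprived libraries that chose the genes, so its calls too are a description, and nothing is read from their share. In it 10 of the 24 genes were higher and 2 lower, where 18.5% of all genes were called, 9.43% higher and 9.04% lower. The median was 0.64, and the largest values were those of BnaC08g43370D (3.86 ± 0.51) and BnaA08g24500D (2.99 ± 0.43). The smallest called value, that of BnaC06g11810D (0.62), was not called without N-deprived library 1 (0.65) or 3 (0.53). The genes lower without N than in the mean of the others were BnaA09g00320D (−1.64 ± 0.19) and BnaCnng01740D (−1.46 ± 0.25).

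The sign of this contrast depended on the P and Ca libraries. Against the mean of Mg, S and K deprivation alone, a comparison added after the data were seen, 3 genes were higher and 5 lower, where 28.6% of all genes were called, 14.8% higher and 13.8% lower, and the median was −0.12. The 3 higher genes were BnaC08g43370D (2.41), BnaA01g14080D (0.97) and BnaC08g02430D (0.87). The 5 lower genes were 4 ammonium transporters, with BnaCnng01740D (−1.72) and BnaA09g00320D (−1.70) ahead of BnaA01g23190D (−1.42) and BnaA07g05760D (−1.13), and BnaC03g56990D (−1.11), which had been higher (1.36) against the mean of all 5. BnaC08g02430D was not called without any 1 of 8 libraries (0.75 to 0.99), BnaA01g14080D not without N-deprived library 3 (0.70), and BnaA01g23190D not without N-deprived library 2 (−1.32) or 3 (−1.44).

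The Mg transporter genes had small responses to their own deprivation, and none was called. Under Mg deprivation 0 of the 16 genes were called, where 3.58% of all genes were. At an unadjusted p of 0.05 edgeR counted 2, where 10831 of the 56667 genes tested fell at or below that value. The likelihood ratio test and DESeq2 called 0 of the 16, where they called 3251 of 56667 and 3101 of 54468 genes. The median log2 fold change was −0.04, and the values ran from −0.43 to 0.39. Under N deprivation 2 genes were lower (20.1% of all genes called) and under P deprivation 4 higher and 4 lower (29.3%). Under S deprivation 2 were higher and 1 lower (8.84%), and under Ca deprivation 2 higher and 7 lower (26.5%). Under K deprivation 0 were called (1.26%). There edgeR counted 3 at an unadjusted p of 0.05, as it did 7407 of the 56667 genes tested. The likelihood ratio test and DESeq2 also called 0 under K deprivation, where they called 1470 of 56667 and 1438 of 56666 genes. The own response was the largest of the 6 in 0 of the 16 genes, and 15 of them were called under some other deprivation. With 0 calls under Mg deprivation, calls elsewhere follow largely from the rule of entry to the list, which asked for at least 1 call. Nothing is read from these counts or shares.

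**Figure D4:**
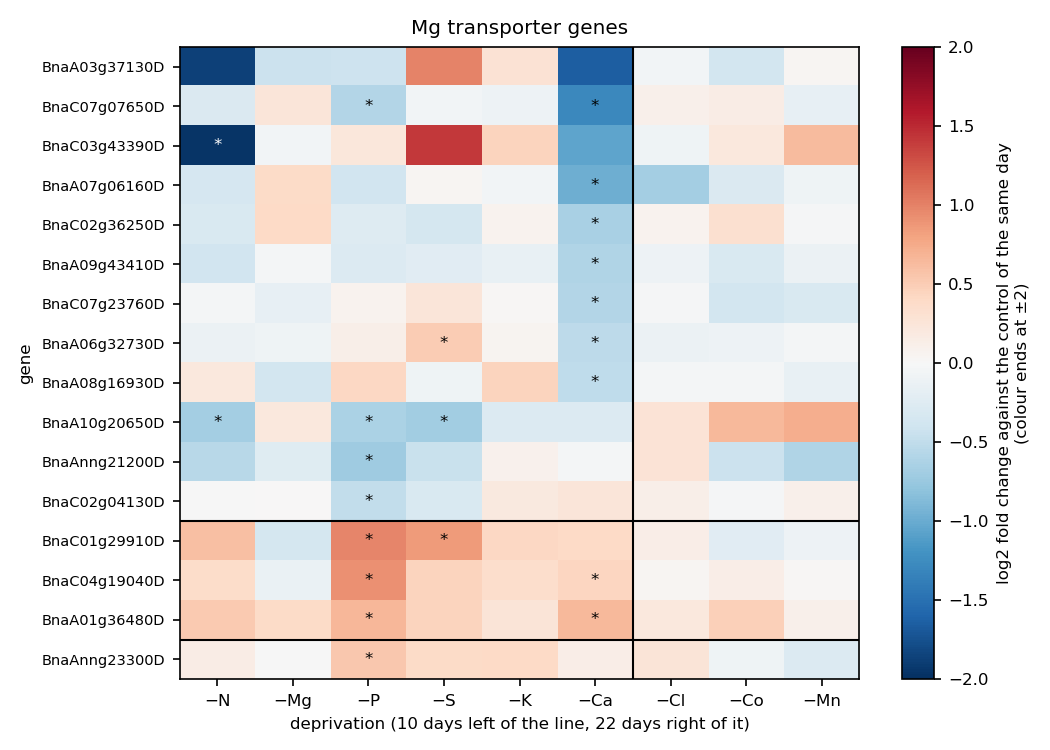
Log2 fold change of the 16 Mg transporter genes (rows) under each deprivation (columns) against the control of the same day, with asterisks on calls at an adjusted p of at most 0.05 and lines between NIPA, magnesium transporter protein 1 (OST3/OST6) and the remaining gene. The Mg column holds 0 calls, NIPA genes are mostly blue without Ca (7 called lower) and the 3 OST3/OST6 genes are red without P (3 called higher).

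The 12 NIPA genes were mostly lower without Ca. Their summed level was 130, 132 and 137 CPM in the controls, 134, 135 and 140 CPM without Mg and 103, 100 and 103 CPM without Ca. The Mg-deprived libraries overlapped the controls, and every Ca-deprived library lay below them. Under Ca deprivation 11 of the 12 log2 fold changes were negative and 7 were called lower (13.9% of all genes). The calls of BnaC07g07650D, BnaA07g06160D, BnaA09g43410D and BnaC07g23760D held without any 1 library.

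BnaC07g07650D had the largest called response of the family to Ca deprivation. It measured 10.4, 7.68 and 7.42 CPM in the controls and 3.59, 3.69 and 2.97 CPM without Ca, a log2 fold change of −1.29 ± 0.19 with no overlap. Without Mg it measured 12.1, 8.73 and 9.54 CPM, which overlapped the controls (0.25 ± 0.18, not called). Its P call (−0.59) was lost without control library 1 (−0.43) or P-deprived library 3 (−0.52).

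BnaC02g36250D was among the genes with the highest values without Mg. It measured 8.95, 8.11 and 9.15 CPM in the controls, 11.5, 10.3 and 12.8 CPM without Mg and 4.78, 6.76 and 4.90 CPM without Ca. The Mg-deprived libraries were all above and the Ca-deprived libraries all below the controls, with log2 fold changes of 0.39 ± 0.17 (not called) and −0.65 ± 0.18 (called, but not without Ca-deprived library 1, −0.56, or 3, −0.57). BnaA07g06160D was similar, with 7.78, 8.70 and 7.35 CPM in the controls, 11.7, 10.7 and 8.45 CPM without Mg and 4.01, 3.27 and 4.71 CPM without Ca. Its Mg-deprived libraries overlapped the controls, and the log2 fold changes were 0.38 ± 0.22 (not called) and −0.98 ± 0.23 (called).

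In BnaA08g16930D the Mg-deprived libraries were lower instead. They measured 5.80, 5.82 and 6.28 CPM, against 7.38, 8.11 and 7.49 CPM in the controls, a log2 fold change of −0.36 ± 0.16 that was not called although the groups did not overlap. Without Ca the gene measured 5.89, 5.12 and 5.03 CPM (−0.51 ± 0.16, called), and this call was lost without control library 2 (−0.44) or 3 (−0.52) or Ca-deprived library 2 (−0.48) or 3 (−0.47) and with no filter on low counts. Without K it measured 12.1, 7.38 and 12 CPM (0.45 ± 0.16, not called), and without K-deprived library 2 the value was 0.65 and called. Without P-deprived library 3 it was called higher also under P deprivation (0.50).

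BnaA06g32730D was the only member of the Mg list called in both directions. It measured 12.9, 12.3 and 10.6 CPM in the controls, 18.1, 16.6 and 16.0 CPM without S and 8.96, 9.29 and 6.38 CPM without Ca, and neither group overlapped the controls. The log2 fold changes were 0.51 ± 0.15 and −0.52 ± 0.15. The S call was lost without control library 2 (0.54) or 3 (0.44) or any 1 S-deprived library (0.46 to 0.55) and with no filter on low counts, and the Ca call without control library 1 (−0.47) or 2 (−0.47) or Ca-deprived library 3 (−0.37).

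BnaC03g43390D and BnaA03g37130D were the NIPA genes of lowest count and widest spread. BnaC03g43390D held 10, 8 and 7 counts in the controls, 3, 3 and 1 without N and 40, 10 and 26 without S. It was called lower without N, by at least 3.14-fold with 3 counts per library as the floor. That call was lost without control library 1 (−1.82) or 2 (−1.94) or N-deprived library 2 (−2.13) or 3 (−1.51). Under S deprivation its log2 fold change of 1.41 ± 0.44 was not called, and without S-deprived library 2 it was 1.66 and called, as it was with all libraries by the likelihood ratio test. Under K deprivation it measured 0.531, 1.5 and 0.613 CPM, against 0.785, 0.676 and 0.504 CPM in the controls, and the groups overlapped (0.44 ± 0.47, not called).

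BnaA03g37130D was the only 1 of the 40 genes called under no deprivation. It measured 0.864, 0.591 and 1.37 CPM in the controls, 0.426, 0.325 and 0.0583 CPM without N, 2.87, 0.681 and 1.98 CPM without S and 0.171, 0.581 and 0.0645 CPM without Ca. Its N-deprived and Ca-deprived libraries lay below all controls. The log2 fold changes of −1.86 ± 0.67 (N), 1.0 ± 0.53 (S), −1.65 ± 0.65 (Ca) and −0.43 ± 0.57 (Mg) were not called. Without Ca-deprived library 2 the Ca value was −2.99 and called, and the likelihood ratio test and DESeq2 called it lower under N and Ca deprivation.

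BnaA10g20650D was the only NIPA gene called under 3 deprivations, lower in each (−0.68 under N, −0.64 under P and −0.69 under S). It measured 15.9, 19.8 and 27.1 CPM in the controls. All 3 calls were lost without control library 3, the highest (−0.44, −0.40 and −0.45). The N call was also lost without N-deprived library 2 (−0.65) or 3 (−0.63), the P call without P-deprived library 2 (−0.51) or 3 (−0.57), and the S call without control library 2 (−0.72) or any 1 S-deprived library (−0.77 to −0.65). BnaAnng21200D and BnaC02g04130D were called lower without P alone (−0.70 and −0.50), and the call of BnaC02g04130D was lost without control library 3 (−0.40) or P-deprived library 3 (−0.41). BnaAnng21200D was called lower also under N deprivation by the likelihood ratio test, DESeq2, RLE normalization and the fit of only the conditions compared (−0.55 in the reported fit, not called), and under S deprivation without S-deprived library 2 (−0.68), and BnaA09g43410D was so under N deprivation without control library 1 (−0.44) or 3 (−0.48).

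The 3 magnesium transporter protein 1 (OST3/OST6) genes were called higher without P, and none of them was called without Mg. They summed to 38.9, 32.1 and 35.2 CPM in the controls, 30.6, 36.8 and 31.5 CPM without Mg, 60.0, 64.1 and 74.5 CPM without P and 48.6, 47.7 and 48.6 CPM without Ca. All libraries without P or Ca lay above the controls, and those without Mg overlapped them. Under N, P, S, K and Ca deprivation each of the 3 genes had a positive log2 fold change. Under P deprivation 3 were called higher (15.1% of all genes), under Ca 2 (12.6%) and under S 1 (4.22%).

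BnaC01g29910D measured 16.4, 11.6 and 13.8 CPM in the controls, 24.5, 26.2 and 32.1 CPM without P, 27.4, 23.0 and 24.9 CPM without S and 7.50, 14.4 and 10.6 CPM without Mg. The P- and S-deprived groups lay above the controls, and the Mg-deprived group overlapped them. Its log2 fold change was 0.98 ± 0.24 under P, 0.86 ± 0.24 under S and −0.35 ± 0.25 under Mg deprivation (not called). The S call was lost without control library 2 (0.74) or 3 (0.86) or S-deprived library 1 (0.79) or 3 (0.86).

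BnaC04g19040D was close to it, with 16.7, 14.4 and 14.7 CPM in the controls and 25.5, 27.3 and 33.4 CPM without P (0.91 ± 0.15, no overlap). Its Ca call (0.43 ± 0.15) was lost without control library 2 (0.42) or 3 (0.41) or Ca-deprived library 1 (0.28). BnaA01g36480D measured 5.73, 6.16 and 6.70 CPM in the controls, 10.8, 6.84 and 6.74 CPM without Mg, 9.97, 10.6 and 8.98 CPM without P and 12.3, 7.81 and 8.83 CPM without Ca. Every deprived library of the 3 groups was above the controls. The log2 fold changes were 0.38 ± 0.22 (Mg, not called), 0.66 ± 0.22 (P) and 0.64 ± 0.22 (Ca), and the P call was lost without control library 1 (0.60) or 2 (0.69) or P-deprived library 1 (0.65) or 2 (0.61). The Ca call was lost without control library 1 (0.58) or 2 (0.66) or Ca-deprived library 1 (0.44) or 3 (0.69). The remaining gene, BnaAnng23300D, was called higher without P (0.54 ± 0.17), and not without control library 2 (0.49) or P-deprived library 2 (0.49) or 3 (0.49).

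**Figure D5:**
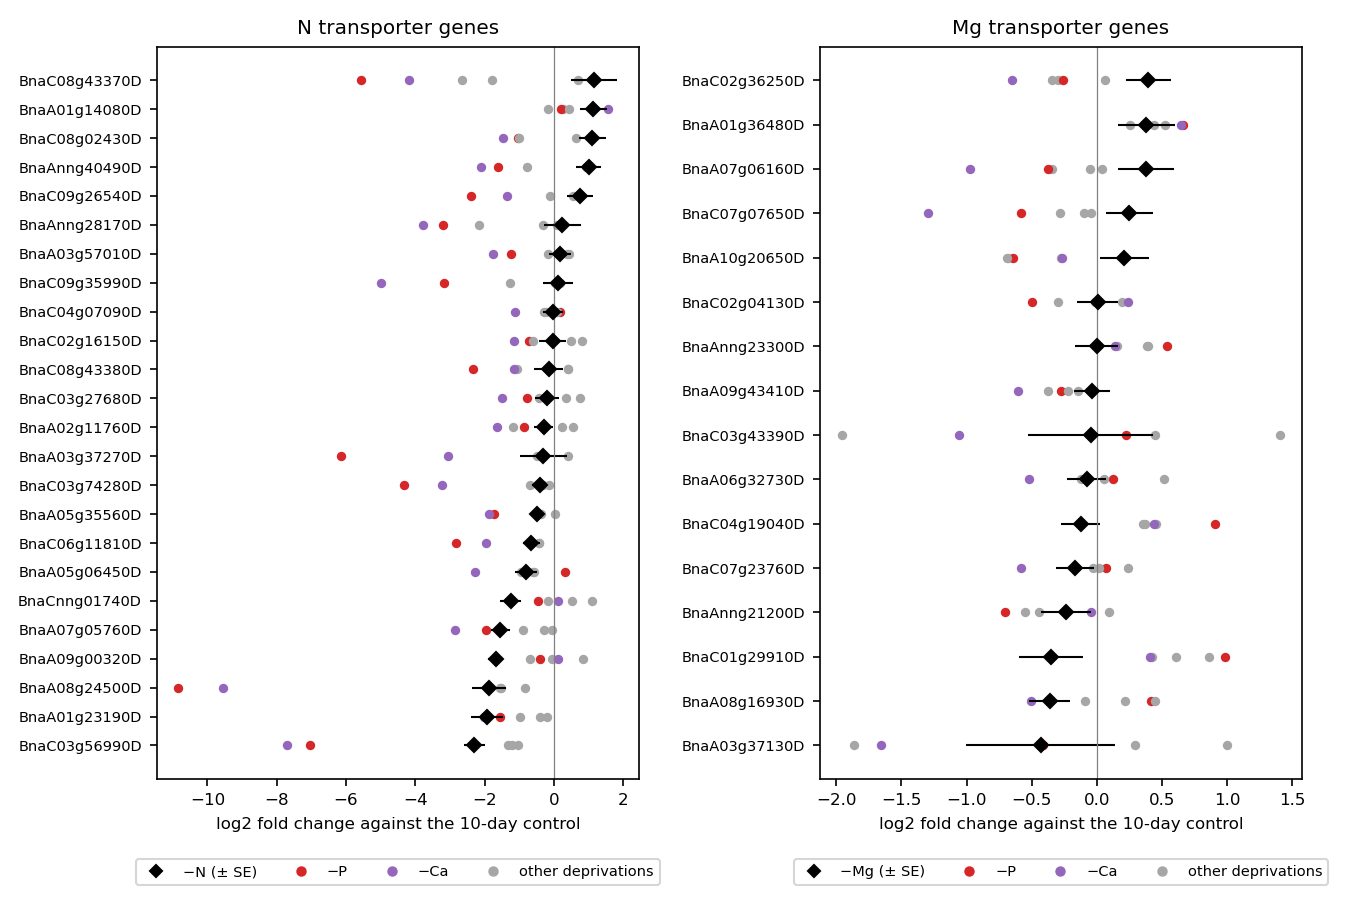
Log2 fold change of each N gene (left) and Mg gene (right) under its own deprivation (black diamonds, ± SE) and under the other 5 of 10 days (red, P; purple, Ca; grey, the rest) against the 10-day control. For most N genes the P and Ca points lie far left of the diamond (medians −1.66 and −1.91 against −0.25), while the diamonds of the Mg genes stay between −0.43 and 0.39.

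Mg deprivation was set against the mean of the other 5 deprivations in the same way, again from the libraries that chose the genes and as a description only. It left 5 of the 16 genes higher and 3 lower, where 38.2% of all genes were called, 20.3% higher and 17.9% lower. The median was 0.09. The 5 higher genes were NIPA genes, BnaA07g06160D (0.72 ± 0.16), BnaA10g20650D (0.72 ± 0.14), BnaC07g07650D (0.71 ± 0.13), BnaC02g36250D (0.69 ± 0.13) and BnaA09g43410D (0.28 ± 0.11), the last of which was not called without any 1 of 12 libraries (0.21 to 0.29). The 3 lower genes were BnaC01g29910D (−1.01 ± 0.20) and BnaC04g19040D (−0.63 ± 0.12) of the OST3/OST6 type and the NIPA gene BnaA08g16930D (−0.46 ± 0.13).

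The 22-day libraries allowed a test of the members under deprivations that had not chosen them. No member of either list was called under Cl, Co or Mn deprivation, and neither was any of the 54251 genes tested (0% of all genes). At an unadjusted p of 0.05 edgeR counted 2 of the 24 N genes under Cl, 11 under Co and 7 under Mn deprivation, where 4.1%, 10.3% and 11.7% of all genes fell below that value. Among the 16 Mg genes it counted 1, 1 and 2. The lowest adjusted p was 1.0 (Cl), 0.473 (Co) and 0.357 (Mn) for the N genes and 1.0, 0.479 and 0.395 for the Mg genes. The likelihood ratio test called no member, where it called 0.0608% (Cl), 0.142% (Co) and 0.335% (Mn) of all genes. DESeq2, which called 0.0628%, 0.096% and 0.38% of all genes, called 1 member, the Nar2 gene BnaA02g11760D under Mn deprivation (−1.13, adjusted p = 0.0449).

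The Nar2 genes were lower without Co and Mn in every library, though not beyond the threshold. They summed to 739, 710 and 638 CPM in the 22-day controls, 306, 358 and 591 CPM without Co, 320, 386 and 462 CPM without Mn and 470, 651 and 873 CPM without Cl. Libraries without Co or Mn lay below all controls, and those without Cl spanned them. All 5 genes had negative log2 fold changes under Co and under Mn deprivation, with medians of −0.74 and −0.72 (0.006 and −0.004 over all genes). Both comparisons share the same 3 controls. Genes of a family were measured in the same libraries and are no replicates of a condition. No share of signs over all genes is set beside the family counts at 22 days, and nothing is read from them.

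Of the major facilitator genes, all 8 had negative log2 fold changes under Co deprivation, with a median of −0.74 (0.006 over all genes). By edgeR 5 had an unadjusted p below 0.05, where 10.3% of all genes did. BnaC08g43370D had the largest change, with 16.3, 15.7 and 13.1 CPM in the 22-day controls and 3.76, 2.49 and 8.78 CPM without Co (−1.53 ± 0.51, adjusted p = 0.473 by edgeR). The groups did not overlap, but the change did not pass the threshold.

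Of the 10 ammonium transporters, 9 had positive log2 fold changes under Co and 9 under Mn deprivation, with medians of 0.29 and 0.41. By edgeR 1 and 2 of them had an unadjusted p below 0.05, where 10.3% and 11.7% of all genes did. BnaA07g05760D measured 23.4, 21.5 and 25.1 CPM in the 22-day controls, 45.4, 41.1 and 27.6 CPM without Cl, 31.5, 39.6 and 36.2 CPM without Co and 34.0, 41.0 and 31.2 CPM without Mn. All 9 deprived libraries were above the controls. The log2 fold changes of 0.68 ± 0.19, 0.64 ± 0.19 and 0.63 ± 0.19 had adjusted p of 1.0, 0.473 and 0.368 by edgeR.

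The 22-day controls were also compared with the 10-day controls, which had entered the choice of genes, and age and harvest cannot be told apart here. No member was called, where 0.647% of all genes were, 0.372% higher and 0.275% lower at 22 days. At an unadjusted p of 0.05 edgeR counted 9 N genes and 1 Mg gene, and 6751 of the 57501 genes tested. All 5 Nar2 genes had positive log2 differences (22 days minus 10 days, median 0.70) and all 10 ammonium transporters negative ones (median −0.35). The median over all genes was −0.003. The Nar2 gene BnaC09g26540D measured 47.0, 44.2 and 45.4 CPM, against 25.9, 14.5 and 13.9 CPM at 10 days (1.33 ± 0.37, not called).

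Further genes of the same pathways came from the study's own lists of differentially expressed genes, which had been chosen on these samples. Those of N assimilation and of the oligopeptide transporter family came from only a part of such a list, ordered by the study's Ca result. Other such genes may lie outside that part, and the Ca response weighed on which genes were seen. Of the 17 Mg/Zn genes of the CorA-like MRS2 type, 1 was called higher and 0 lower under Mg deprivation (2.34% and 1.24% of all genes), and the median log2 fold change was 0.33. The called gene was BnaC09g36230D (0.96 ± 0.25). Under Ca deprivation 1 was higher and 8 were lower (12.6% and 13.9% of all genes), with a median of −0.42, and under P deprivation 0 were higher and 5 lower (15.1% and 14.3% of all genes). Of 10 genes of N assimilation (3 each for glutamine synthetase, glutamate synthase and glutamate dehydrogenase, and 1 of the nitrate reductase type), 3 were higher and 3 lower without N (9% and 11.1% of all genes), 3 higher and 7 lower without P (15.1% and 14.3%) and 3 higher and 6 lower without Ca (12.6% and 13.9%). The 3 glutamate synthase genes, which with glutamine synthetase build ammonium into amino acids, were all lower without P and without Ca. Of 3 genes of the proton-dependent oligopeptide transporter family, to which low-affinity nitrate transporters belong, 3 were lower under each of N, P, K and Ca deprivation, where 11.1%, 14.3%, 0.346% and 13.9% of all genes were. As these lists were chosen on the same libraries, nothing is read from the shares.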

How the data were processed

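Stranded, poly(A)-selected, paired-end libraries were made from root RNA. The authors trimmed the reads, aligned them with STAR against *Brassica napus* (Genoscope annotation V5) and deposited raw counts per gene, each a whole number of read pairs. Pairs that mapped to several places (6.68% to 7.67% of a library) had been left out, so near-identical gene copies can be undercounted. The deposited counts of the gene's own strand were used (the opposite strand held at most 0.782% of a library's gene counts), and totals that name no gene were left out. The authors' columns of fold changes and p-values in the supplementary lists were not used.

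Conditions and replicate numbers came from the sample labels. The members and the gene lists were chosen with earlier results of these data known. The counts were fitted in R 4.3.3 by edgeR 4.0.16, after filterByExpr and TMM, with glmQLFit and glmQLFTest and 1 coefficient per condition (21 libraries at 10 days, 12 at 22 days and 33 for the comparison of controls). A gene was called when its p, adjusted after Benjamini and Hochberg over all genes tested (56667 at 10 days and 54251 at 22 days), was 0.05 or less, without a fold threshold. SEs were derived from the F statistic (log2 fold change over its square root). CPM are TMM-normalized over all 33 libraries. Floors of 3 counts cover counting error only.

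Genes were named by rule: in each list the 3 largest positive and 3 largest negative responses to the own deprivation, the 2 largest to each other deprivation at 10 days, those called at 22 days and those called in both directions. Other members were named to account for all 40, and those at 22 days after their values were seen. The alternatives were the likelihood ratio test, DESeq2 1.42.0, RLE normalization, no filter on low counts, a fit of only the conditions compared, the replicate number as a block and each library left out. Bounded medians and the contrast of N with Mg, S and K were added after the data were seen. The fit was checked on simulated data for the K comparison only. That check does not cover the other contrasts. Figures were drawn with matplotlib 3.10.9.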

Additional observations from a re-analysis of the deposited data

How the results depend on the processing

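Directions of the named members held in all but 1 of 452 recomputed values: 396 kept their side of the threshold, 38 lost their call, 17 gained one and 1 changed sign (BnaC03g43390D under K deprivation, −0.19 without K-deprived library 2 and up to 0.69 without K-deprived library 1, called in neither). A value is not among these where the gene did not pass the filter of a fit. The called N response of BnaC03g43390D was left out so in the fit of only the conditions compared, which did not call it. RLE normalization ended no call of a named member. Counts of calls moved by over 1.5 times in these cases. In a fit of only the conditions compared, the N list had 0 calls under each of Mg, S and K deprivation. The Mg list had 1 under N, 5 under P, 0 under S and 5 under Ca deprivation, with fewer libraries behind each estimate. In that fit BnaA10g20650D, BnaC02g04130D and BnaC07g07650D lost their P call. BnaA01g36480D, BnaA06g32730D, BnaA08g16930D and BnaC04g19040D lost their Ca call. BnaA10g20650D lost its N call, and BnaA01g23190D its P and Ca calls. BnaA03g37270D (P and Ca) and BnaC03g43390D (N) did not pass its filter on low counts. Of all genes tested, that fit called 34 of 51491 under Mg, 71 of 52101 under S and 20 of 51754 under K deprivation. It called 6439 of 52177 under N, 11528 of 52152 under P and 10951 of 52619 under Ca deprivation. DESeq2 called 5 N genes under Mg, 2 under S and 1 under Mn deprivation. It called 4 Mg genes under N deprivation, and the likelihood ratio test also called 4 there. Of all genes, DESeq2 called 3101 of 54468 under Mg, 6788 of 56666 under S and 182 of 47862 under Mn deprivation. Under N deprivation it called 12145 of 56666, and the likelihood ratio test 12565 of 56667.

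Whether the replicate numbers pair the libraries cannot be settled by correlation. Same-numbered libraries deviated together no more than others at 10 days (median correlation −0.00198 over 63 pairs, against −0.00829 over 126). At 22 days the median was 0.0640 over 18 same-numbered pairs, against −0.0250 over 36 others. Of those 18 pairs, 7 exceeded 0.1, as did 4 of the 36. With the replicate block, 1 N gene was called under K deprivation in place of 2, the N call of BnaA01g14080D was lost (1.16), and every other count stayed within 1.5 times. When any 1 library was left out, the N list had 5 to 9 calls under N, 0 to 5 under Mg, 14 to 17 under P, 0 to 4 under S, 0 to 2 under K and 17 to 21 under Ca deprivation, and 11 to 13 for N against the other 5. The Mg list had 0 to 2 under N, 0 under Mg, 5 to 7 under P, 0 to 3 under S, 0 to 1 under K and 5 to 9 under Ca deprivation, and 7 to 9 for Mg against the other 5. At 22 days every one of these counts was 0. Of the 50 calls of the N list 34 held without any 1 library, and of the 22 calls of the Mg list 7 did. Genes under about 1 CPM, such as BnaA03g37270D and BnaC03g43390D, rest on few counts, and 3 libraries per condition limit all small changes.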
